A study of Homo sapiens with 16 samples.

Results

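Neural progenitors of human brain organoids were compared at the first and the last stage sampled, day 40 and day 120. Both stages are SOX2-EGFP-positive sorted cells with 2 ATAC-seq libraries each, so 4 of the 16 libraries of the study form the comparison. They were chosen by their sample titles. ATAC-seq marks open chromatin, because the transposase Tn5 cuts DNA that is free of tightly packed nucleosomes, and each library is represented by its own list of broad peaks. All libraries come from 1 dual reporter line of H9, which is an established line of human embryonic stem cells with the genotype label WT. In that line EGFP follows the coding sequence of one SOX2 allele through a P2A peptide, and dTomato under the human SYN1 (hSYN1) promoter sits at AAVS1, so day 40 and day 120 cells carry both reporters. The organoids were enriched for dorsal telencephalon. The sources used here do not give whether the line is a single clone, how many organoids were pooled, or whether the 2 libraries of a day came from separate cultures. A p-value of the gene-level fit therefore measures only how libraries of the same population and day differ, which could be technical. That spread is pooled over all 16 libraries and is not that of the 4 endpoint libraries alone. The sort takes any cell that makes SOX2, and in sorted bulk cells a changed share of a cell type and a changed state of each cell cannot be told apart. Merging the 4 lists on chromosomes 1 to 22 and X gave 168983 regions, against 321056 for the lists of all 16 libraries. The 4 progenitor libraries of days 60 and 90 served to place endpoint regions in time, and with the 8 neuron libraries they entered the gene-level fit, where they help to estimate the spread between libraries.

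Radial glia are the stem cells of the developing cortex. Early in development they divide to enlarge the progenitor pool and make deep-layer neurons, later they make upper-layer neurons, and at the end they turn to astrocytes and oligodendrocyte precursors. A group of genes first described for early stem cells, among them LIN28B, HMGA2 and the IGF2BP family, falls in expression along this path, while factors such as NFIA and ZBTB20 and the receptor gene EGFR are known from later, gliogenic progenitors. At the medial edge of the cortex lies the cortical hem, a signalling centre that makes Wnt and Bmp ligands. Distal regulatory elements change more than promoters when cells mature, and most of them lie far from gene starts.

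The 6 start-site sequences shown here were chosen because the regions over them had peaks in both libraries of one endpoint and in neither of the other, and because they hold the short motifs counted further on. They are the 250 bases before an annotated start site, from the RefSeq table for GRCh38.p14, which has the coordinates of the hg38 build of the peak lists. The first 3 have peaks at day 120 only and the last 3 at day 40 only. Capitals mark matches, on either strand, to short motifs. The letters TGANTCA stand for AP-1, the dimers of Fos and Jun proteins. TTGGCA is one arm of the site bound by nuclear factor I (NFI) proteins, which act in gliogenesis. ACAATG is a core read by SOX proteins, the family of SOX2. GGAATG is the core of TEAD sites, through which YAP acts. TAATTA is read by many homeodomain proteins. CAGCTG is an E-box of the kind read by proneural factors. GGGCGG is the GC box of Sp proteins, and TATAAA the TATA box. No matches overlap in the sequences shown.
HEPACAM (chr11:124936048-124936297, minus strand): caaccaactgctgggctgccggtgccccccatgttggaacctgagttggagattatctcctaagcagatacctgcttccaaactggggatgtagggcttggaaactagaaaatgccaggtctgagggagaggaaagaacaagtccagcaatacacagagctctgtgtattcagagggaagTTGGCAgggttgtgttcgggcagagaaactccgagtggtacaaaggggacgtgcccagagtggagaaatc
ZBTB20 (chr3:114624946-114625195, minus strand): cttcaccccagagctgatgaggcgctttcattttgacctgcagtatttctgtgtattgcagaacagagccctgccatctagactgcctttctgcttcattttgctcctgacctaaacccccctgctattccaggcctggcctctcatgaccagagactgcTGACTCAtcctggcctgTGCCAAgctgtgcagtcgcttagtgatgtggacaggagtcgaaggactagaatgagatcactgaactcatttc
RGS8 (chr1:182752377-182752626, minus strand): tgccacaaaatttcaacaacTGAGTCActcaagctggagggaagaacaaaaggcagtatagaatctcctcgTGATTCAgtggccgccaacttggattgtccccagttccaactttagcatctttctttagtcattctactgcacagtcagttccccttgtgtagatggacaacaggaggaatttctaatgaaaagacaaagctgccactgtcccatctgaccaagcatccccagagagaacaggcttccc
IGF2BP2 (chr3:185821143-185821392, minus strand): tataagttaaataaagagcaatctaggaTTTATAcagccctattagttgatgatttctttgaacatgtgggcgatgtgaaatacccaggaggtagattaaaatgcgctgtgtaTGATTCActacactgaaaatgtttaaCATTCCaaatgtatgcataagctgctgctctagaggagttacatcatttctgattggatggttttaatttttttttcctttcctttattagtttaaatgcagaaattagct
WNT8B (chr10:100462759-100463008, plus strand): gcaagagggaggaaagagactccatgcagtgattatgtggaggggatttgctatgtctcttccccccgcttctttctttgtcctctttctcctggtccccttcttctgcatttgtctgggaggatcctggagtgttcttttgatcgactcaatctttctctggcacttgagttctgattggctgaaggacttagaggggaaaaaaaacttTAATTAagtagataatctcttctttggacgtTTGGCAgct
VEPH1 (chr3:157499657-157499906, minus strand): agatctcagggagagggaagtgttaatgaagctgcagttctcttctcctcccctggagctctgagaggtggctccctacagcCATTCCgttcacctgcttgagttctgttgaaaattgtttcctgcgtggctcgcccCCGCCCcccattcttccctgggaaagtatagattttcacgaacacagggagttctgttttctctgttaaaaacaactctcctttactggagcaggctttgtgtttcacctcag
RGS8, a regulator of G-protein signalling, and VEPH1 were among the first 3 in their direction by strength of the peak. HEPACAM (a glial adhesion protein), ZBTB20 (a transcription factor of late progenitors and astrocytes), IGF2BP2 (an mRNA-binding protein) and WNT8B (a Wnt ligand of the medial cortex) are members of the gene lists, and were chosen after their values were seen. In RGS8 the capitals mark AP-1 letters at bases 21 and 72, and in HEPACAM NFI letters at base 181, counted from the first base shown. ZBTB20 has AP-1 letters at base 161 and NFI letters at base 178. IGF2BP2 has TATA letters at base 29, AP-1 letters at base 114 and TEAD letters at base 140. WNT8B has homeodomain letters at base 211 and NFI letters at base 242, and VEPH1 has TEAD letters at base 83 and a GC box at base 138. A match is only a match of letters and shows no binding.

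One of the 4 lists was much shorter than the others. Day 40 replicates 1 and 2 held 98690 and 107501 peaks that covered 77.8 and 82.8 Mb, and day 120 replicate 1 held 109751 peaks that covered 85.2 Mb. Day 120 replicate 2 held 67977 peaks over 36.9 Mb, with a median width of 433 bases against 634 to 652 in the other 3. In that list 17.3% of peaks lay within 1 kb of a gene end, against 12.7% to 14.7%. The depth in reads is unknown from such lists, so no counting interval can be given. The 2 day 40 lists shared 0.612 of their joint covered bases and the 2 day 120 lists 0.363, although 88.2% of the bases in day 120 replicate 2 also lay in replicate 1. Mean covered length was 80.3 ± 3.53 Mb at day 40 and 61.0 ± 34.1 Mb at day 120 (SD, n = 2 each). The exact two-sided permutation p was 1.0, and 2 libraries against 2 cannot give less than 0.3333. Counts of regions, their timing and the main gene-level calls are given with and without the short list. Positions, start sites and motifs were not computed without it.

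The endpoints shared 41201 regions that had a peak in all 4 libraries, 24.4% of the 168983. A further 22365 regions (13.2%) had a peak in both day 40 libraries and in neither day 120 library, and 10770 regions (6.37%) had the reverse pattern. These are called day 40-only and day 120-only regions. Presence needs 1 base of overlap, and there is no test of a single region with 2 libraries a day. Which class was larger depended on the short list. Without day 120 replicate 2 the counts were 23304 day 40-only and 38798 day 120-only regions, and without day 120 replicate 1 they were 40304 and 19443. With every list cut to its strongest peaks down to 36.9 Mb there were 4770 and 11713 among 77068 regions. That step leaves all peaks of the short list and, in the other 3, those with a −log10 p of at least 10.7 to 13.0, so it compares peaks of unequal strength. With the short list left out and the other 3 cut to 77.8 Mb the counts were 25217 and 30663, and with each list cut to 67977 peaks they were 16436 and 13610. No order of their sizes held across them.

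**Figure D1:**
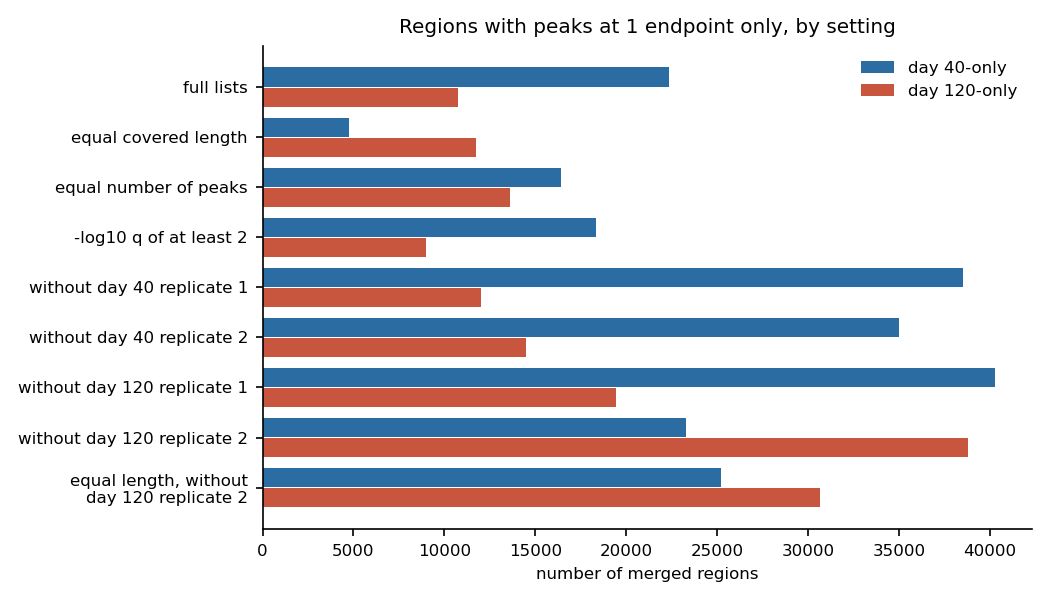
Number of merged regions (x axis) with peaks only at day 40 (blue) or only at day 120 (red), for the full lists and 8 other settings. The red bar is the longer one with lists of equal covered length and in both settings without day 120 replicate 2, and the blue one in the other 6.

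Endpoint regions were then looked up in the lists of the stages between. Over all 168983 regions 50.3% had a peak in both day 60 libraries and 55.5% in both day 90 libraries, and 25.9% had none at either stage. Of the 22365 day 40-only regions 46.1% had a peak in both day 60 libraries and 34.0% in both day 90 libraries, and 28.4% had none at either stage. Of the 10770 day 120-only regions 37.2% had a peak in both day 60 libraries and 69.0% in both day 90 libraries, and 13.6% had none at either stage. Library by library, day 40-only regions had a peak in 55.3% and 56.3% of cases on day 60 and in 43.7% and 44.8% on day 90. Day 120-only regions had one in 49.2% and 45.8% on day 60 and in 81.8% and 72.0% on day 90. Over all 168983 regions the shares were 57.6% and 56.8% on day 60 and 62.5% and 60.5% on day 90, so day 120-only regions stood above that background on day 90 and below it on day 60. Day 40-only regions stood just below it on day 60 and further below on day 90. The shares moved with the short list. Without day 120 replicate 2, 44.8% of day 120-only regions had a peak in both day 90 libraries, without replicate 1 42.9%, and with lists of equal length 36.3%. The value of 69.0% thus holds for regions that the short list also called. These other shares lie below the 55.5% of all regions in full lists. No share over all regions was computed for those settings, so whether they stood above their own background is unknown. In the day 40-only class the share with peaks in both day 60 libraries was 47.2% without replicate 2, 62.4% without replicate 1, and 34.1% and 33.7% without day 40 replicate 1 and replicate 2.

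Neurons sorted from organoids of the same line carried part of the same change, with no test of it. Day 40-only regions had a peak in 43.3% and 41.8% of cases in the 2 day 40 neuron lists and in 11.6% and 13.8% in the 2 day 120 neuron lists. Day 120-only regions had one in 38.1% and 28.7% at day 40 and in 47.8% and 40.5% at day 120. Over all regions these shares were 50.8% and 47.1% at day 40 and 37.4% and 36.8% at day 120.

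**Figure D2:**
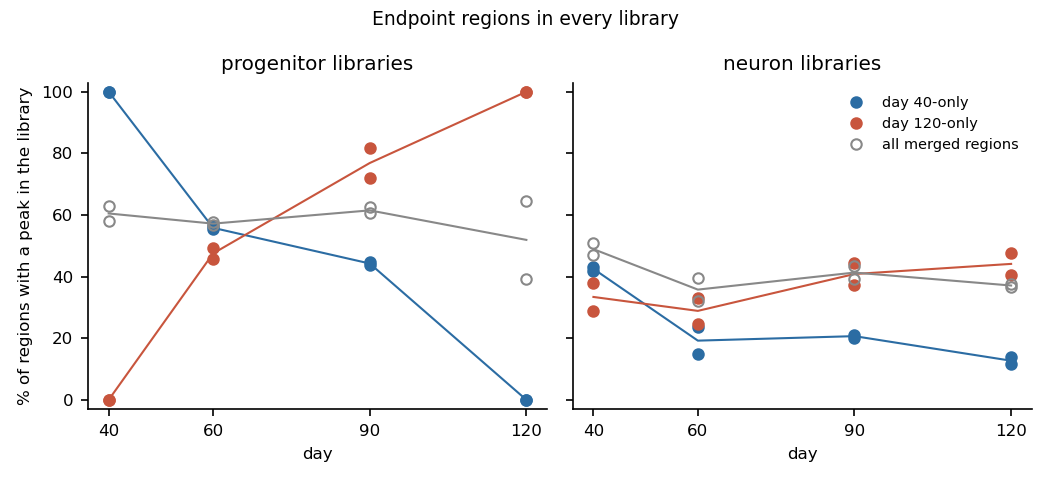
Share of regions with a peak in each library (points, 2 per day, with lines through their means) for day 40-only (blue), day 120-only (red) and all merged regions (open grey), in progenitors (left) and neurons (right). The values of 0 and 100 at days 40 and 120 in progenitors are fixed by how the classes are defined. At day 90 the red points stand at 81.8% and 72.0% and the blue ones at 43.7% and 44.8%.

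Regions were then ranked by their strength, the lower of their 2 within-list percentiles of −log10 q, among those that also stayed in lists of equal length. This left 2097 day 40-only and 4281 day 120-only regions. The strongest day 40-only region lay inside VTI1A, a vesicle SNARE gene (chr10:112658664-112659964, hg38). It covered 1215 and 1271 bases at day 40, 1094 and 961 on day 60, 906 and 1040 on day 90 and 0 and 0 at day 120. In neurons it covered 963 and 866 bases at day 40 and 0 in the 6 later lists. A region inside UNC5C, which encodes a netrin receptor for axon guidance (chr4:95398740-95400722), went from 1983 and 1533 bases at day 40 through 1024 and 1179 on day 60 and 799 and 1163 on day 90 to 0 and 0. The one inside the AMPA receptor gene GRIA1 (chr5:153657974-153659133) went from 1062 and 1065 bases through 776 and 906 and then 807 and 759 to 0 and 0. These regions thus had peaks in both libraries on day 90 and in neither at day 120.

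The next in strength lay 18788 bases outside BCOR, a transcriptional corepressor gene (chrX:40031848-40032458), inside TCF7L1, which encodes a repressor of Wnt targets (chr2:85287513-85288872), and inside SLIT3, a guidance ligand gene (chr5:169144586-169145656). The last 2 lay 32186 bases outside the prolactin gene PRL (chr6:22254024-22255060) and inside the glypican gene GPC3 (chrX:133865240-133866423). The TCF7L1 region covered 1235 and 1354 bases at day 40, 1291 and 921 on day 60 and 939 and 1097 on day 90. All 8 had peaks in both day 60 and both day 90 libraries, as did 57.5% of the 2097 regions they were ranked among, and in neurons none of the 8 had a peak at day 120.

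The strongest day 120-only region lay 54658 bases outside RNASEH2B, an RNase H2 subunit gene (chr13:51025118-51026503). It covered 0 and 0 bases at day 40, 1012 and 1028 on day 60, 1359 and 1272 on day 90, and 1386 and 1105 at day 120. Neurons had none there at day 40 and 1091 and 1045 bases at day 120. A region 16024 bases outside GRXCR1, a gene known from hair cells (chr4:43046682-43047689), rose in steps, with 522 and 212 bases on day 60, 1008 and 836 on day 90 and 1008 and 953 at day 120. In neurons it had a peak in 1 of the 2 day 120 lists, over 316 bases, and in none at day 40. The region inside the doublecortin-like kinase gene DCLK1 (chr13:35881129-35881954) covered 524 and 629 bases on day 60, 826 and 826 on day 90 and 826 and 526 at day 120.

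The other 5 lay inside CNKSR3, a scaffold gene (chr6:154494426-154495578), 20220 bases outside GRIP2, which encodes a glutamate receptor scaffold (chr3:14623237-14624391), and 36068 bases outside DNAJC15, a mitochondrial co-chaperone gene (chr13:43150281-43151051). The last 2 were inside DPP6, a potassium channel subunit gene (chr7:154347204-154348121), and inside TLL2, a metalloprotease gene (chr10:96390025-96391110). All 8 had peaks in both day 60 and both day 90 progenitor libraries, as did 46.9% of the 4281 regions they were ranked among. The CNKSR3, DCLK1, GRIP2 and TLL2 regions also had peaks in both neuron libraries at day 40, where progenitors had none.

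**Figure D3:**
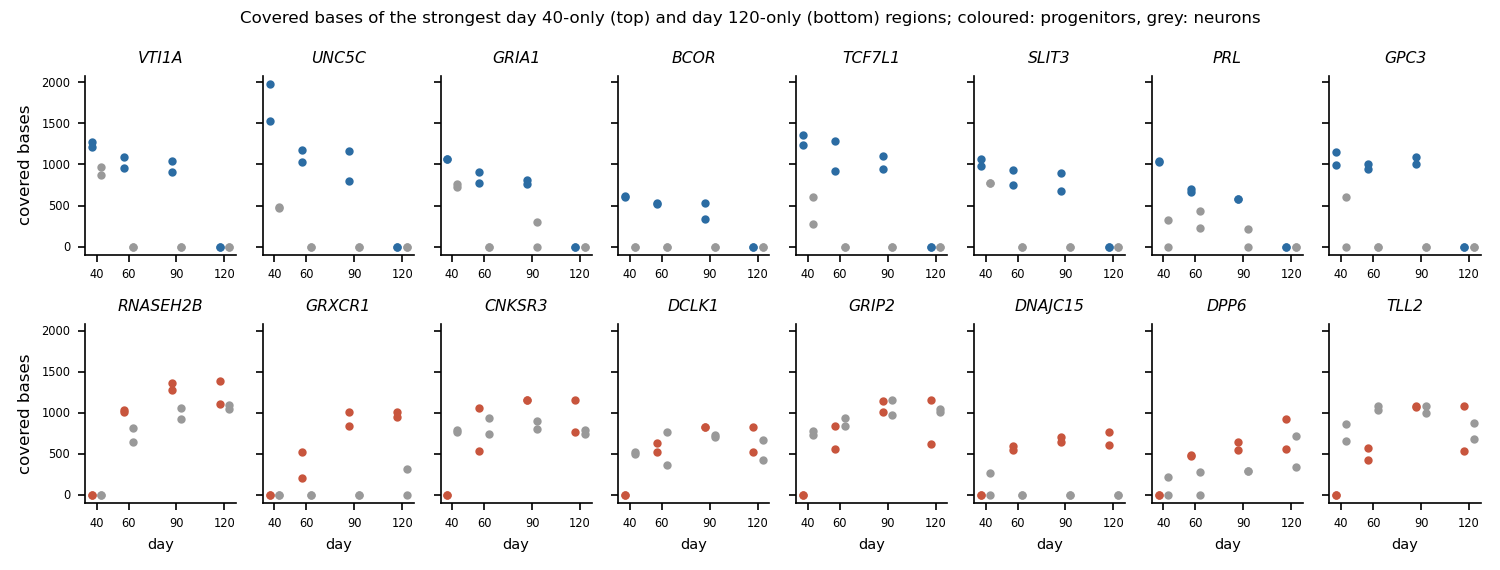
Bases covered by peaks (y axis) by day (x axis) in the 8 strongest day 40-only regions (top row) and the 8 strongest day 120-only regions (bottom row), named by the nearest gene. Coloured points are the 2 progenitor libraries and grey points the 2 neuron libraries of each day. The zeros at day 120 in the top row and at day 40 in the bottom row follow from the choice of regions, and at days 60 and 90 the coloured points are above 0 in all 16 panels.

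Some endpoint regions lay within 1 kb of an end of a list gene. Day 120-only regions lay there at the folate receptor gene FOLR1 (chr11:72189313-72189814) and at SP9 (chr2:174338929-174340356) and DLX6 (chr7:97011642-97012743), both transcription factor genes of ventral telencephalon and GABAergic cells. The SP9 region covered 1161 and 1380 bases at day 120 and none in the other 14 libraries of the study. At DLX6 the values were 1102 and 794 bases at day 120, 866 and 0 on day 90 and 186 and 0 on day 60. Day 40-only regions lay as near to an end of CCN1, a target of YAP (chr1:85583919-85584959), FEZF2, a factor of deep-layer neurons (chr3:62368518-62369289), LUM, which encodes a matrix proteoglycan (chr12:91111358-91111981), and TEAD2, a partner of YAP (chr19:49338760-49339928). CCN1 had 1041 and 790 bases at day 40, 458 and 461 on day 60, and 0 and 595 on day 90. The FEZF2 region closed in progenitors and had peaks in both day 120 neuron libraries, over 495 and 520 bases.

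Endpoint regions of the 4 full lists, the short one included, were mostly distal. Of day 40-only regions 4.09% and of day 120-only regions 1.996% lay within 1 kb of the end of a protein-coding gene, against 27.3% of regions with a peak in all 4 libraries and 9.82% of all regions. Their median distances to a gene end were 54.7 and 63.8 kb, against 20.7 kb for regions in all 4 and 41.7 kb for all. About equal shares of both classes lay inside genes, 49.6% and 48.3%. They were narrower than regions found in all 4 libraries, with median merged widths of 658 and 719 bases against 1221. In day 120 replicate 1 the peaks of day 120-only regions had a median rank percentile of −log10 q of 63.9, and in day 120 replicate 2 of 40.0. The peaks of day 40-only regions had 40.1 and 40.6 in the 2 day 40 lists. On chromosome 19, rich in genes, 2.01% of 3386 regions were day 120-only and 12.5% day 40-only. Over the other chromosomes the day 120-only share ran from 4.35% on chromosome 22 to 7.43% on chromosome 3. The order of the classes changed among regions that also stayed in lists of equal length. There 1.53% of day 40-only and 1.89% of day 120-only regions lay within 1 kb of a gene end, at median distances of 80.2 and 67.9 kb. On chromosome 19 the shares of both such classes were the lowest of any chromosome, 0.561% day 40-only and 0.620% day 120-only.

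Start sites were few among the endpoint regions. Of 22131 start-site windows of 300 bases, 350 (1.58%, 317 genes) lay in day 40-only regions and 49 (0.221%, 46 genes) in day 120-only regions, with peaks over the window in both libraries of that day. That excess at day 40 was seen in full lists, the short one included. Of the 2097 day 40-only regions that stayed in lists of equal length, 20 (0.954%) lay within 1 kb of a start site. Of the 4281 day 120-only ones, 34 (0.794%) did. The CpG counts and motif shares that follow are those of the full lists only. In the 250 bases before the start, the day 120-only windows had a median of 4 CpG dinucleotides and the day 40-only ones 11, against 22 for start sites with peaks in all 4 libraries, 4 for those with none and 16 for all. NFI letters were in 36.7% of the 49 day 120-only windows, 10.9% of the day 40-only ones and 9.45% of all. Start sites with no peak in the 4 libraries, which are as poor in CpG, held them in 12.2%. AP-1 letters were in 24.5% of the 49, 6.29% of the day 40-only windows, 9.13% of those with no peak and 5.35% of all. The SOX letters stood at 22.4%, 6.57%, 11.1% and 6.91% in the same order. TEAD letters showed the other order, with 10.2% in day 120-only, 18.9% in day 40-only, 13.0% in no-peak and 10.5% in all windows. Homeodomain letters were in 2.04%, 8.0%, 5.58% and 3.16% in that order. The E-box letters were in 24.5%, 14.6%, 15.4% and 13.7%, the GC box in 16.3%, 49.4%, 25.9% and 53.7%, and the TATA letters in 12.2%, 12.9%, 16.96% and 8.996%. With 49 windows, some of them alternative starts of 1 gene, these shares are descriptions.

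Among 441 start sites of list genes, 4 were day 120-only and 12 day 40-only. Not counted were starts with peaks over the window at 1 endpoint only, where the merged region had peaks at both. At day 120 such starts were those of HOPX and NFIB, each beside other starts of the gene. At day 40 they included starts of NFIA, LEF1, RSPO3, AJUBA, PDK1, TCF4, ADM and BDNF. The day 120-only starts were those of HEPACAM, ZBTB20, ETV1 (an FGF-responsive transcription factor) and CA9 (a hypoxia-induced carbonic anhydrase). The HEPACAM start had a peak in neither library of day 40 or day 60 and in both libraries of days 90 and 120. At ZBTB20 this start was open in 1 of 2 libraries on day 90, while other starts of the gene had peaks in all 4 endpoint libraries. Those of ETV1 and CA9 were open from day 60 on in every progenitor library. The day 40-only starts belonged to IGF2BP2, WNT8B, RSPO1 (an R-spondin, which strengthens Wnt signals), OTX2 and GBX2 (patterning factors), DNMT3B (a DNA methyltransferase), BDNF (a neurotrophin), RBFOX3, MBP, ERG, FLT1 and TWIST2. The WNT8B and GBX2 starts had peaks in both day 40 libraries and in none of the 6 later progenitor libraries. The IGF2BP2 start shown above was open through day 90 and closed at day 120, while the other start of the gene had peaks in all 8 progenitor libraries.

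To compare genes, the bases covered by peaks in each protein-coding gene and 20 kb on either side were summed. Each sum was scaled to the mean covered length of all libraries, and log2(bases + 500) was fitted with limma over the 16 libraries in 8 groups. The scaling factor was 2.15 for day 120 replicate 2, 0.931 for day 120 replicate 1, and 1.019 and 0.957 for the day 40 libraries. A value called scaled kb is the scaled sum, and a difference is day 120 minus day 40 on that log2 scale, given with its standard error. Of 18751 loci tested, 505 were higher at day 120 (2.69%) and 1033 were higher at day 40 (5.51%) at a Benjamini-Hochberg adjusted p under 0.05. At an unadjusted p under 0.05 there were 1504 and 2766. Both directions together were 1538 loci (8.2%). At 443 loci (2.36%) the difference in progenitors was not the same as in neurons by the interaction term of this fit. A call often needed all 4 libraries, since 121 loci passed without day 40 replicate 1, 290 without day 40 replicate 2, 3287 without day 120 replicate 1 and 501 without day 120 replicate 2. The 83 loci that passed in the same direction each time comprised 19 higher and 64 lower at day 120. With the 4 endpoint libraries alone, which leave few degrees of freedom, limma called 0 loci (smallest adjusted p 0.12, 927 and 1695 at an unadjusted p under 0.05). The main fit shares 1 spread per locus among all 8 groups. The 2 day 120 lists were less alike than the 2 day 40 lists (0.363 against 0.612 of joint bases). Its p-values can therefore be too small for this contrast.

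The largest falls among loci that kept their sign in lists of equal length were at loci open at day 40 and nearly bare at day 120. NTF3, which encodes the neurotrophin NT-3, had 7.83 and 6.69 scaled kb at day 40, 4.46 and 3.53 on day 60, 3.52 and 4.35 on day 90, and 0 and 0.404 at day 120. The difference was −3.52 ± 0.29 (limma adjusted p = 1.85e-05), 6 of its 8 regions were day 40-only, and it passed without any 1 of the 4 libraries. MSRB3, a methionine sulfoxide reductase gene, went from 11.4 and 11.5 scaled kb to 2.85 and 0.914 (−2.46 ± 0.35, limma adjusted p = 0.00104), with 8 day 40-only regions among 17. Its days between stood at 9.29 and 9.52 and at 5.30 and 6.81. C3orf62, SLC38A4, GALR1 and LOC105373397 had no peak in either day 120 library, and for such loci the size of the log2 difference depends on the pseudocount of 500 bases. TBX5, a T-box factor gene, had 2.18 and 3.58 scaled kb at day 40 and 0.343 and 0 at day 120 (−2.35 ± 0.35, limma adjusted p = 0.00161). VASN, TMC5, IRX1, LOC124903391 and TSPEAR completed the 12, with differences from −2.49 to −2.37. The 12 are the largest among 642 of the 1033 loci that kept their sign in lists of equal length and had at least 2 kb at day 40. CRIPTO, at −2.75 ± 0.39, fell by more than most of them but stood at 0 in those lists. Among the 12, 8 still passed without day 40 replicate 1, 9 without day 40 replicate 2, 12 without day 120 replicate 1 and 9 without day 120 replicate 2, and the highest adjusted p reached 0.152. In lists of equal length 6 passed, with adjusted p up to 0.458. MSRB3 stood at −2.18 there (limma adjusted p = 0.118), TBX5 at −0.84 (0.227) and SLC38A4 at −0.67 (0.452).

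The 12 largest rises, among 397 of the 505 loci that met the same conditions, were less alike. ACTN2, an actinin gene, had 1.26 and 1.49 scaled kb at day 40, 2.30 and 3.03 on day 60, 3.12 and 2.52 on day 90 and 6.38 and 7.56 at day 120, so most of its gain lay after day 90. Its difference was 1.99 ± 0.24 (limma adjusted p = 0.00055). LAMB3, a laminin gene, rose earlier, from 1.32 and 1.96 to 4.76 and 5.29 by day 60 and to 5.39 and 8.08 at day 120 (1.75 ± 0.22, limma adjusted p = 0.000607). GRXCR1 went from 0.418 and 1.38 through 3.45 and 3.0 on day 60 and 5.82 and 6.21 on day 90 to 5.26 and 5.03 (2.105 ± 0.31, limma adjusted p = 0.00152). Those 3 and CDRT4 passed without any 1 library. The others were OR4M1, STEAP3, PLA2G5, CELA2A, PLAAT4, CDCP1, CA1 and EFHC2, with differences from 1.62 to 2.83. Of the 12, 5 still passed without day 40 replicate 1, 6 without day 40 replicate 2, 11 without day 120 replicate 1 and 7 without day 120 replicate 2, and the highest adjusted p reached 0.274. In lists of equal length 10 of the 12 passed, with adjusted p up to 0.313. A rise in those lists was a condition of the choice. That cut also keeps weaker peaks in day 120 replicate 2 than at day 40, so the 10 are no separate support. OR4M1, an olfactory receptor gene with no peak at day 40, had 1.44 scaled kb in day 120 replicate 1 and 6.0 in replicate 2, and its 2.83 was 1.96 without replicate 2 (limma adjusted p = 0.155).

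Single loci of glial and late progenitor genes rose, in numbers to be read against the 2.69% of all loci that were higher at day 120. In lists of this size that share amounts to less than 1 locus each, so 1 call in a list is close to it. In the oligodendrocyte lineage list EGFR, the epidermal growth factor receptor gene of gliogenic progenitors, went from 8.28 and 8.81 scaled kb at day 40 through 11.3 and 11.2, then 16.2 and 14.4, to 20.6 and 25.4 at day 120. Each day's pair lay above the pair before it. The difference was 1.37 ± 0.17 (limma adjusted p = 0.00055), it passed without any 1 library, and 5 of 29 regions were day 120-only and 2 day 40-only. OLIG1, a transcription factor of the same lineage, had 2.34 and 1.44 at day 40 and 4.69 and 6.14 at day 120 (1.32 ± 0.25, limma adjusted p = 0.00567). SOX4, a factor of differentiating neural cells, rose by 0.82 ± 0.19, and NKX2-2, a ventral and oligodendrocyte factor, fell by 1.64 ± 0.31. In this list 3 of 14 members rose, 1 fell, and the median difference was 0.34 against −0.04 over all loci, while PDGFRA, SOX10 and OLIG2 stood at 0.35, −0.31 and 0.62 and did not pass. OLIG1 lost its call without day 40 replicate 2 (adjusted p = 0.077), and NKX2-2 without any of 3 libraries (0.0585, 0.0634 and 0.0587 without day 40 replicates 1 and 2 and day 120 replicate 2). SOX4 was lost without the same 3, at 0.188, 0.0592 and 0.127.

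In the astroglia list 2 of 23 members rose and 0 fell, with a median difference of 0.04. SLC1A2, the astrocytic glutamate transporter gene, had 6.19 and 9.06 scaled kb at day 40 and 12.8 and 14.2 at day 120 (0.81 ± 0.20, limma adjusted p = 0.021). HEPACAM had 3.48 and 2.48 at day 40, 4.01 and 3.57 on day 90 and 6.01 and 5.74 at day 120 (0.89 ± 0.25, limma adjusted p = 0.0405). GFAP, the astrocyte filament gene, had 3.22 and 4.03 against 4.10 and 6.77, and AQP4, the aquaporin gene, 1.18 and 1.66 against 2.01 and 0.518. Neither passed. In the late temporal list 1 of 11 rose, ZBTB20, with 36.4 and 37.7 scaled kb at day 40, 41.7 and 32.4 on day 60, 46.8 and 43.3 on day 90, and 61.5 and 60.2 at day 120 (0.71 ± 0.18, limma adjusted p = 0.0253). NFIA, a gliogenic factor gene, stayed at 44.7 and 40.1 against 42.3 and 36.4 (−0.11 ± 0.15, limma adjusted p = 0.739). In neurons 6 of the 11 late temporal members rose from day 40 to day 120 and 0 fell, with a median of 0.69. In the outer radial glia list 1 of 12 rose, the integrin gene ITGB5, from 4.27 and 3.66 to 8.02 and 6.67 (0.81 ± 0.17, limma adjusted p = 0.00942). HOPX, a marker of these basal stem cells, had 5.66 and 5.86 at day 40 against 5.51 and 9.78 (0.33 ± 0.23, limma adjusted p = 0.437). The calls of these 4 depended on which libraries were fitted, while the ZBTB20 difference stayed between 0.68 and 0.73. Before scaling, day 120 replicate 2 lay within or below the day 40 pair at all 4 loci. ZBTB20 covered 35699 and 39346 bases at day 40 against 66077 and 27980 at day 120. ITGB5 covered 4192 and 3819 against 8614 and 3100. Their scaled values in that library carry its factor of 2.15. Without day 40 replicate 1 the adjusted p of ITGB5 was 0.0585, of HEPACAM 0.106, of ZBTB20 0.174 and of SLC1A2 0.258. Without day 120 replicate 2 ITGB5 kept its call at 0.0155 and the other 3 stood at 0.099 to 0.116. Without day 40 replicate 2 SLC1A2 kept it at 0.0335, with ITGB5 at 0.0879, ZBTB20 at 0.116 and HEPACAM at 0.279, and without day 120 replicate 1 HEPACAM alone lost it, at 0.0666. In lists of equal length ZBTB20 passed (0.92, limma adjusted p = 0.0362), HEPACAM stood at −0.32, ITGB5 at 0.55 and SLC1A2 at 1.27, and these 3 did not pass.

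In the early temporal list 6 of 15 loci lost open chromatin. No member rose, and 5.51% of all loci fell. This list too was chosen with earlier results of these data known, so its excess over that share is a description and no test. The 15 had a median difference of −0.70 against −0.04. In their windows 21.2% of 241 regions were day 40-only and 4.15% day 120-only, against 13.2% and 6.37% of all regions. LIN28B, an RNA-binding protein gene that blocks let-7 maturation, had 9.70 and 9.34 scaled kb at day 40, 7.37 and 7.48 on day 60, 4.99 and 6.01 on day 90, and 5.63 and 3.42 at day 120 (−1.03 ± 0.21, limma adjusted p = 0.00822). IGF2BP2 held 18.6 and 14.9 at day 40 and 13.4 and 20 on day 90, and fell to 7.19 and 5.64 at day 120 (−1.32 ± 0.21, limma adjusted p = 0.00245), with 12 day 40-only regions among 30. HMGA2, a chromatin protein gene of fetal stem cells, went from 20.5 and 16.9 to 11.0 and 9.05 (−0.86 ± 0.20, limma adjusted p = 0.019). The others were the mRNA-binding protein gene IGF2BP3 (−0.91 ± 0.19), the let-7 target TRIM71 (−1.13 ± 0.27) and CRABP1, which encodes a retinoic acid-binding protein (−2.22 ± 0.44, 4.16 and 4.64 against 1.72 and 0 scaled kb). LIN28B was thus at its day 120 level by day 90, while IGF2BP2 was still at its day 40 level then, and those steps were not tested. LIN28A, CCND1 and HMGA1 stood at −0.43, −0.70 and −0.20 and did not pass. Leaving out day 40 replicate 1 removed all 6 calls (adjusted p 0.0585 to 0.188). Without day 40 replicate 2 the calls of IGF2BP2 and IGF2BP3 held, without day 120 replicate 2 those of IGF2BP2 and CRABP1, and without day 120 replicate 1 all 6. In lists of equal length CRABP1 kept its call and the other 5 lost it, with LIN28B at −0.45 (limma adjusted p = 0.441), IGF2BP2 at −0.37 (0.417) and HMGA2 at −0.27 (0.481). The median was −0.57 without day 120 replicate 2 and −0.41 in lists of equal length. In neurons 4 of the 15 also fell from day 40 to day 120 and 0 rose, with a median of −0.37. The interaction with progenitors passed for 0 members.

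The Wnt and hem list had the most calls of the 25 lists. Of its 19 members 12 fell and 0 rose, where 5.51% of all loci fell, and the median difference was −0.92. The members were chosen with earlier results of these data known, so their excess over that share is only described. In their windows 21.7% of 212 regions were day 40-only and 1.42% day 120-only, against 13.2% and 6.37% of all regions. Among the ligands, BMP4 had 4.89 and 4.61 scaled kb at day 40, 4.14 and 3.56 on day 60, 2.73 and 3.38 on day 90, and 1.02 and 0.845 at day 120 (−1.87 ± 0.25, limma adjusted p = 0.000791). It passed without any 1 library, and 4 of its 5 regions were day 40-only. WNT5A went from 7.48 and 6.33 to 2.87 and 1.06 (−1.69 ± 0.36, limma adjusted p = 0.0122), and WNT3A, the ligand that marks the hem, from 4.74 and 3.75 to 1.38 and 0.987 (−1.50 ± 0.31, limma adjusted p = 0.00934). WNT7B and WNT2B fell by 1.24 and 1.07. RSPO2, an R-spondin gene, dropped between days 40 and 60, from 6.88 and 7.38 to 2.46 and 1.80, and had 3.41 and 2.33 at day 120 (−1.20 ± 0.23, limma adjusted p = 0.00632). LGR5, which encodes a receptor for R-spondins, did the same, with 10.5 and 10.1 at day 40, 6.06 and 6.85 on day 60, and 5.72 and 7.0 at day 120 (−0.66 ± 0.18, limma adjusted p = 0.0323).

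Transcription factors and targets of the list fell too. LMX1A, a factor of the hem and choroid plexus, had 14.8 and 12.3 scaled kb against 6.02 and 5.68 (−1.14 ± 0.20, limma adjusted p = 0.00405). The Wnt effector LEF1 and the Wnt target AXIN2 fell by 0.95 and 0.85, and the Bmp targets MSX1 and MSX2 by 0.92 and 0.91. Not passing were the Wnt antagonists SFRP1 and SFRP2 (0.02 and −0.36), DKK3 (−0.28), BMP7 (0.25), RSPO1 (−0.97), RSPO3 (−0.74) and WNT8B (−0.65). Of the 12 calls, leaving out day 40 replicate 1 kept 1, that of BMP4, with the others at adjusted p 0.0681 to 0.264. Leaving out day 40 replicate 2 kept 8, day 120 replicate 1 kept 10 and day 120 replicate 2 kept 7. The median was −0.96 without day 120 replicate 2 and −0.54 in lists of equal length, where WNT2B alone of the 12 passed, RSPO3 passed as well (−2.23, limma adjusted p = 0.00884), and BMP4 and WNT7B stood at 0.41 and 0.43. Summed over the 19 members the scaled coverage was 148.5 and 125.5 kb at day 40 and 75.95 and 77.42 kb at day 120. The fall was not confined to progenitors. In neurons 5 of the 19 fell and 1 rose from day 40 to day 120, with a median of −0.51. The interaction with progenitors passed for 1 member.

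**Figure D4:**
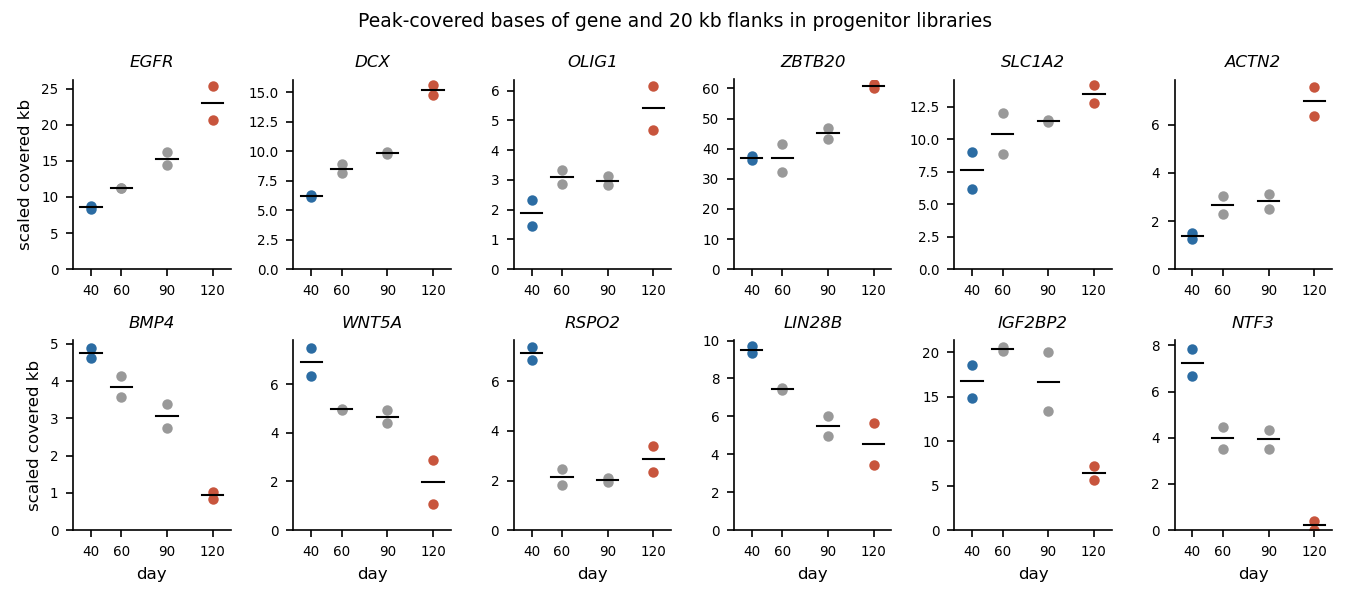
Scaled covered kb of 12 loci (y axis from 0, own scale per gene) in the 8 progenitor libraries by day (x axis), with day 40 in blue, day 120 in red, the days between in grey and black bars at the means of 2 libraries. Loci were picked from those that passed. The top row holds loci that rose and the bottom row loci that fell, BMP4 from 4.89 and 4.61 to 1.02 and 0.845.

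Patterning genes fell at a few loci, where 5.51% of all loci fell, which is about 1 locus in lists of this size. In the cortical patterning list 3 of 13 fell and 0 rose (median −0.23). EMX1, a dorsal telencephalic factor, had 9.31 and 8.54 scaled kb at day 40, 9.45 and 10.1 still on day 90, and 4.56 and 3.75 at day 120 (−1.02 ± 0.17, limma adjusted p = 0.0027). DMRTA2 and DMRT3, factors of the medial cortex, fell by 0.93 and 0.75. PAX6, a cortical progenitor factor, had 18.0 and 14.0 at day 40 against 11.2 and 14.0 and did not pass (−0.33 ± 0.16, limma adjusted p = 0.232). All 3 calls were lost without day 40 replicate 1 (adjusted p 0.0551 to 0.14), without day 40 replicate 2 those of DMRT3 and DMRTA2 were (0.0864 and 0.0704), and without day 120 replicate 2 that of DMRTA2 was (0.0773). In the posterior and non-telencephalic list 3 of 20 fell and 0 rose (median −0.64). They were IRX1 (6.03 and 3.93 against 1.56 and 0), the eye field factor RAX (5.76 and 4.88 against 1.08 and 1.44) and OTX2 (7.85 and 7.31 against 2.31 and 2.44). That median rested on the short list, since it was −0.14 without day 120 replicate 2 and 0.41 in lists of equal length. In the ventral and GABAergic list 1 of 16 fell, SIX3 (11.8 and 8.04 against 4.48 and 1.82, −1.59 ± 0.40), and 0 rose. DLX1, DLX2, DLX5 and DLX6 stood at 0.41, 0.36, 0.72 and 0.48 without passing, beside the day 120-only regions at SP9 and DLX6. The calls of RAX, OTX2 and SIX3 were lost without day 40 replicate 1 (0.0955, 0.13 and 0.226), as was that of IRX1 (0.0891). Those of OTX2 and SIX3 were also lost without day 40 replicate 2 (0.0855 and 0.0762) or day 120 replicate 2 (0.0727 and 0.23), and OTX2 stood at 0.27 in lists of equal length.

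Markers of neurons and of other cell types are given for their whole lists, since the sort may hold such cells, and their part in the other results was not tested. Over all loci 8.2% were called in either direction, which is about 1 locus in lists of this size. Of 16 pan-neuronal genes DCX rose and RBFOX3 fell. DCX, the doublecortin gene of young neurons, had 6.26 and 6.10 scaled kb at day 40, 8.16 and 8.89 on day 60, 9.95 and 9.75 on day 90 and 14.8 and 15.6 at day 120 (1.23 ± 0.16, limma adjusted p = 0.000607), and passed without any 1 library. In lists of equal length it stood at 0.59 (limma adjusted p = 0.154). RBFOX3, the gene of NeuN, had 24.6 and 22.8 at day 40 and 16.4 and 12.5 at day 120 (−0.71 ± 0.19, limma adjusted p = 0.0298). The summed coverage of the 16 was 176.1 and 178.1 kb at day 40 and 184.9 and 181.8 kb at day 120. Of 12 intermediate progenitor and proneural genes ELAVL4 rose (0.78 ± 0.16), and of 15 glutamatergic genes the adaptor gene SLA rose, from 1.48 and 2.13 to 7.99 and 4.21 (1.47 ± 0.23, limma adjusted p = 0.00245). Without day 40 replicate 1 RBFOX3, ELAVL4 and SLA lost their calls (0.21, 0.0789 and 0.0584). RBFOX3 also lost it without day 40 replicate 2 (0.114) and day 120 replicate 2 (0.21), and ELAVL4 without day 40 replicate 2 (0.0727).

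Non-neural lists had 0 to 2 calls each, where 8.2% of all loci were called in either direction, which is about 1 locus in lists of this size. Among 13 choroid plexus and ciliated epithelium genes DNAH11, an axonemal dynein gene, rose by 0.58 ± 0.17 and OTX2 fell, while TTR, the defining choroid plexus gene, had 5.16 and 3.45 against 4.16 and 4.12. Among 12 mesenchymal genes the smooth muscle actin gene ACTA2 rose by 0.78 ± 0.18 and TWIST1 fell by 0.80 ± 0.22, and COL3A1 had no peak in any of the 4 libraries. Among 9 endothelial genes ERG fell by 1.60 ± 0.39 and VWF by 0.81 ± 0.24. Of the 9 microglia genes 8 were tested and none passed, C1QA having the largest difference (0.985 and 0.827 against 0.516 and 0 scaled kb), and TREM2 had peaks in 1 of 4 libraries. CRIPTO, of the pluripotency list, had 3.21 and 2.55 scaled kb at day 40 and 0 in both day 120 libraries (limma adjusted p = 0.00104), and it passed without any 1 library. In lists of equal length its difference was 0. The other 6 calls were lost without day 40 replicate 1, at 0.13 to 0.28, and without day 120 replicate 2, at 0.0578 to 0.21. The summed coverage was 76.7 and 65.3 kb against 58.2 and 64.9 kb for choroid plexus, 36.8 and 37.0 against 38.3 and 30.5 kb for mesenchyme, and 17.89 and 14.35 against 13.71 and 10.89 kb for microglia.

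**Figure D5:**
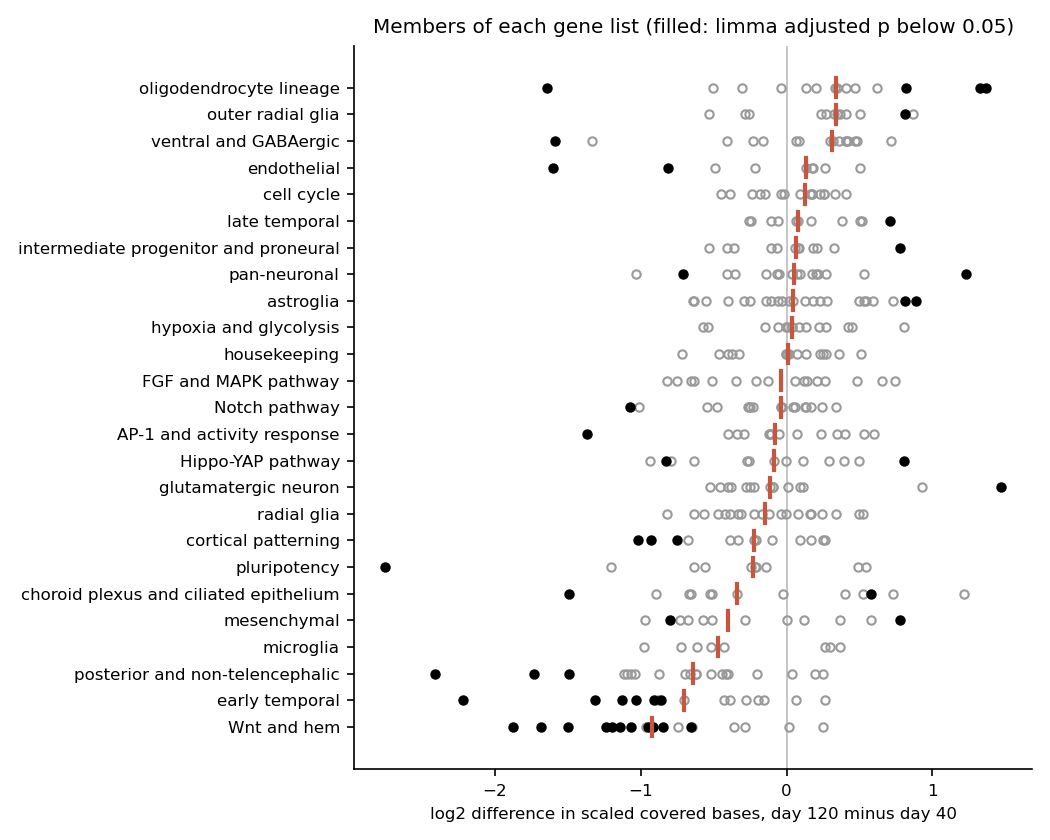
Log2 difference in scaled covered bases, day 120 minus day 40 (x axis), for the tested members of the 25 gene lists (rows, ordered by median). Filled points passed at a limma adjusted p under 0.05, open points did not, and red bars are medians. The Wnt and hem and early temporal lists have the lowest medians, −0.92 and −0.70, with 12 and 6 filled points below 0.

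Signalling lists other than Wnt had few calls, where 8.2% of all loci were called in either direction, which is about 1 locus in lists of this size. Of 18 Notch genes the receptor gene NOTCH3 fell, from 3.02 and 2.34 to 1.18 and 0.841 scaled kb (−1.08 ± 0.27, limma adjusted p = 0.0257). Of 13 Hippo-YAP genes the coactivator gene WWTR1, which encodes TAZ, rose from 11.3 and 10.8 to 16.2 and 23.8 (0.80 ± 0.19), and AJUBA, a LATS inhibitor gene, fell from 6.84 and 5.93 to 3.40 and 3.34 (−0.83 ± 0.19). JUND was the sole call among 14 AP-1 and activity genes, at 6.16 and 5.5 against 3.56 and 0.972. All 4 lost the call without day 40 replicate 1 (0.107 to 0.223), without day 40 replicate 2 (0.0665 to 0.108) and without day 120 replicate 2 (0.0617 to 0.14), and JUND stood at 0.11 in lists of equal length.

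Progenitor markers were compared between the endpoints, and none passed. A lack of calls does not show that the cells of both endpoints are progenitors. In the radial glia list 0 of 20 members rose or fell at an adjusted p under 0.05, with a median of −0.15, and FGFR3 had the largest difference (5.22 and 5.54 against 2.89 and 2.76 scaled kb, −0.82 ± 0.39, limma adjusted p = 0.215). SOX2, on which the sort rests, had 16.2 and 12.3 scaled kb at day 40 and 13.0 and 15.3 at day 120 (−0.01 ± 0.28, limma adjusted p = 0.999), against means of 3.72 in neurons at day 40 and 8.68 at day 120. VIM and NES, filament genes of radial glia, stood at 0.08 ± 0.22 and −0.17 ± 0.23. SYN1, whose promoter drives the other reporter, and PPP1R12C, which holds AAVS1, stood at 0.34 ± 0.25 and −0.39 ± 0.30. The cell cycle (16 genes), FGF and MAPK (16), hypoxia and glycolysis (15) and housekeeping (16) lists had 0 calls in either direction. Their largest differences were those of MKI67, the Ki-67 gene (−0.45 ± 0.26), FGFR3, NDRG1, a hypoxia-induced gene (0.80 ± 0.38), and GUSB, a lysosomal enzyme gene (−0.72 ± 0.34), with limma adjusted p of 0.215 to 0.321. Standard errors for these loci were 0.15 to 0.39. A change has to be several times its standard error to pass, and −0.82 at FGFR3 and 0.80 at NDRG1 did not.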

How the data were processed

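The samples are 16 ATAC-seq libraries, each with 1 deposited broad peak list in hg38 coordinates. MACS2 2.1.2, SAMtools 1.9, Picard, BWA 0.7.17 and Trim Galore 0.5.0 are named, per the submitters' processing notes. The sources used here do not give their settings. For each peak the authors' deposited lists hold a score, a fold enrichment, and −log10 p and −log10 q values, and they hold no read counts. The score was not used. Lists come from single libraries, so a peak can be missing for lack of depth.

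Peaks off chromosomes 1 to 22 and X were left out. Presence needed 1 base of overlap, and lists were also cut to equal covered length or number by −log10 p. Bases covered in 18751 protein-coding genes with 20 kb flanks, at least 500 bases in at least 2 libraries, were scaled to the mean total and fitted as log2(bases + 500) with limma 3.58.1 in R 4.3.3 (trend, 8 group means over 16 libraries, 8 residual degrees of freedom, Benjamini-Hochberg). The fit was tested on simulated data. Other computations used Python 3.11.15 and pandas 2.3.3. Gene positions came from RefSeq for GRCh38.p14. All 367 list entries matched.

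Loci were named by size among those that passed, had no overlap between days, kept their sign in lists of equal length and had at least 2 kb in the higher group, 12 per direction. Added to these were the list members that passed, or else the member that moved most, and 9 fixed genes. The members and lists were chosen with earlier results of these data known. Alternatives were list length, −log10 q of at least 2, overlap, merging, pseudocount, filter, flank, scaling, the libraries fitted, a replicate block and each endpoint library left out. Equal covered length without day 120 replicate 2 was added after seeing the data.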

Additional observations from a re-analysis of the deposited data

Results flagged for a closer look

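The day 120 minus day 40 difference of progenitors was set against that of neurons in the same limma fit, as an interaction on the log2 scale. Over all loci 443 of 18751 (2.36%) passed at an adjusted p under 0.05, and 17 of the 83 named loci did. Of the 83, 70 were already called in progenitors, and that difference is a term of the interaction. The 17 were therefore favoured by the choice of loci, and their number cannot be set against the 2.36%. Interactions were not refitted with a library left out. Causes of these differences were not tested.

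Among loci that rose in progenitors, EGFR rose by 1.37 there and stood at −0.20 in neurons, an interaction of 1.57 (limma adjusted p = 0.00529). DCX rose by 1.23 against −0.29 in neurons, an interaction of 1.53 (limma adjusted p = 0.00529). LAMB3, GRXCR1, ACTN2, PLAAT4, PLA2G5 and DNAH11 had interactions of 1.92, 2.26, 1.59, 2.73, 2.99 and 1.03, with limma adjusted p of 0.00773, 0.0168, 0.0256, 0.0125, 0.0147 and 0.0309. At PLA2G5 day 120 replicate 1 had 1.61 and replicate 2 5.53 scaled kb, against 0.596 and 0.455 at day 40. Its rise in progenitors was 1.80, and 1.04 without replicate 2 (limma adjusted p = 0.119). That call was also lost without day 40 replicate 1 (0.0941) or replicate 2 (0.0973).

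Among loci that fell in progenitors, WNT2B stood at −1.07 there and at 0.76 in neurons, an interaction of −1.83 (limma adjusted p = 0.00529). EMX1 stood at −1.02 against 0.35, an interaction of −1.37 (limma adjusted p = 0.00929). The interactions of CRIPTO, VASN, ERG, SLC38A4, NOTCH3 and DMRTA2 were −2.57, −2.42, −2.31, −2.03, −1.66 and −1.20, with limma adjusted p of 0.024, 0.0391, 0.0391, 0.0312, 0.0352 and 0.0397. NFIA, which did not pass in progenitors (−0.11), stood at 0.83 in neurons, an interaction of −0.94 (limma adjusted p = 0.0298).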

How the results depend on the processing

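Leaving out each endpoint library gave 23304 to 40304 day 40-only and 12011 to 38798 day 120-only regions, and their difference (day 120-only minus day 40-only, −11595 in full lists) ran from −26520 to 15494. It was 6943 in lists of equal covered length, where day 40-only regions numbered 4770, and −2826 with equal numbers of peaks. With equal length and without day 120 replicate 2 it was 5446, with 30663 day 120-only regions. The share of day 120-only regions with peaks in both day 90 libraries was 36.3% in lists of equal length, 31.8% in those without day 120 replicate 2 and 42.9% to 73.6% over the left-out libraries. For day 40-only regions and day 60 it was 36.5% and 33.7% to 62.4%.

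Loci higher at day 120 numbered 208 in a fit of the 8 progenitor libraries, 0 in one of the 4 endpoint libraries, 333 with equal length without day 120 replicate 2, 23 with no scaling and 35 to 1367 over the left-out libraries. Loci higher at day 40 numbered 393, 0, 678 with quantile normalization, 492 with the total subtracted after the pseudocount, and 86 to 1920. Of all calls 32.8% were higher at day 120, against 2.67% with no scaling, 42.4% with equal length, 46.9% with quantile normalization and 50.6% with the total subtracted afterwards. The median difference over all loci was −0.04, and −0.45 with no scaling. List genes higher at day 120 (13) numbered 7 with 8 progenitor libraries, 0 with 4 endpoint libraries or no scaling, 4 with equal length without day 120 replicate 2, and 3 to 30. Those higher at day 40 (34) numbered 20, 0, 18 and 2 to 59, and 12 with equal length. The replicate block gave 497 and 1011 loci and lost none of the 70 named calls. Deviations of same-numbered libraries correlated at −0.0726 over 18751 loci. That value rests on the endpoint progenitor groups alone, which include the short list. It shows no pairing by number and cannot exclude a shared culture or batch.

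Of the 70 named calls 24 held with equal length, 49 with equal numbers of peaks and 18, 32, 65 and 35 without day 40 replicates 1 and 2 and day 120 replicates 1 and 2. Sign changed with equal length for HEPACAM (−0.32), WNT7B (0.43), BMP4 (0.41), JUND (0.11), OTX2 (0.27), TWIST1 (0.0346), VWF (0.0186), ERG (0.24), SYN1 (−0.0373), NES (0.031), VIM (−0.45) and HOPX (−0.19). With equal length without day 120 replicate 2 it changed for MSX1 (0.17), SYN1 (−0.17), VIM (−0.47) and NFIA (0.16). With no scaling SYN1, VIM and HOPX stood at −0.11, −0.40 and −0.15. Over the left-out libraries SYN1 ran from −0.0381 to 0.72, VIM from −0.21 to 0.37, HOPX from −0.0602 to 0.72 and SOX2 from −0.1965 to 0.18. The locus VIM stood at −0.10 with equal numbers of peaks and −0.05925 with 50 kb flanks. SOX2 stood at 0.0125 with −log10 q of at least 2, 0.13 with 50 kb flanks and 0.0181 with the total subtracted afterwards. With 5 kb flanks PAX6 stood at 0.026 and the locus GUSB at 0.0703. The cause of these changes was not tested. No list holds read counts, so how far depth sets which peaks are missing is unknown.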
